A study of Mus musculus with 27 samples.

Results

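The genes described here are the secreted Wnt ligands, their receptors and co-receptors, the secreted proteins that hold Wnt signals back, the R-spondins that strengthen them, and a few transcription factors and targets of the pathway. They were taken by name: every symbol made of Wnt and a number (with a or b where present) or of Fzd and a number, plus Lrp5, Lrp6, Dkk1, Dkk2, Dkk3, Sfrp1, Sfrp2, Sfrp4, Sfrp5, Rspo1 to Rspo4, Lgr4, Lgr5, Lgr6, Axin2, Tcf7, Lef1, Wif1, Frzb and Notum. This gave 51 genes of the 30154 entries in the deposited table: 19 Wnt ligands, 10 Frizzled receptors, 2 co-receptors, 10 secreted antagonists, 4 R-spondins, 3 R-spondin receptors and 3 transcription factors or targets.

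The 27 libraries were bulk RNA-seq of cells sorted from Prx1-CreER/Ai14/Rag1 mice, in which the Prx1 promoter drives a tamoxifen-inducible Cre, the Ai14 allele then marks the recombined cells with tdTomato, and Rag1 is missing, so mature T and B cells are absent. All 9 groups carried these 3 alleles. Mice of both sexes aged 8 to 12 weeks received 2 doses of tamoxifen, and cells were taken 3 days later from hindlimb muscle (digested for 60 min), from the periosteum, the sheath of the bone (digested for 20 min), and from flushed bone marrow. Prx1 reporter cells without the blood cell marker CD45 were sorted from each tissue by CD105 and CD200, with 3 libraries per group. P1 lacked CD105 and carried CD200, P2 lacked both, and P3 carried CD105 with variable CD200. The cells were unperturbed, and a label set by Cre marks descent from Prx1-expressing cells, not 1 cell type. The libraries are described as coming from the same mice, but the labels do not say which mouse gave which library, so p-values measure the spread between libraries.

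Wnt proteins are lipid-modified ligands that bind Frizzled receptors together with the co-receptors Lrp5 or Lrp6, which keeps β-catenin from being degraded and lets it act with the transcription factors Tcf7 and Lef1 on targets such as Axin2. Sfrp proteins, Frzb and Wif1 bind the ligand outside the cell, Dkk1 and Dkk2 bind the co-receptors, Notum removes the lipid from the ligand, and R-spondins raise the number of receptors through Lgr4, Lgr5 and Lgr6. In bone this pathway promotes the formation of osteoblasts and restrains cartilage and fat formation, and secreted antagonists made by bone cells limit it.

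Of the 51 genes, 46 reached a normalized count of 10 in at least 3 libraries and were tested. The other 5 were Wnt3a, Wnt7b, Wnt8b, Wnt9b and Fzd10, each above 0 in between 4 and 8 libraries. Wnt7b reached 183 in 1 periosteum P2 library and Wnt3a 80.2 in 1 bone marrow P2 library. A gene that passed this filter only through the side of a comparison where it is high had to differ. This holds for Wnt7a, which reached 10 in the 3 bone marrow P2 libraries alone, and for Wnt6, whose 5 libraries at 10 or more were all from muscle, so their calls between whole tissues and the bone marrow P1 call of Wnt7a below are descriptions. Other genes reached 10 in too few libraries outside the group or tissue where they were high. This applies to Wnt1 within bone marrow, Wnt6 in P1 cells, Wnt10a in muscle against periosteum and Rspo2 against bone marrow. It also applies to Sfrp5 in muscle against periosteum and against bone marrow over all subpopulations. In P1 over all tissues it applies to Wnt10b and Wnt6. Those calls are descriptions too. Gene positions below are on GRCm38. Between 29 and 48 of the 51 genes were above 0 in any 1 library. Totals of normalized counts per library ran from 8639660 to 26232142, and 12397 to 21676 genes were above 0.

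Group means divided by the length of exon were led by secreted antagonists in 8 of the 9 groups. Sfrp4 had the highest mean per kb of exon in muscle P1 (1160), muscle P2 (311), muscle P3 (639), bone marrow P1 (1392) and bone marrow P3 (1006), all on the linear scale of normalized counts. Wif1 led in periosteum P1 (1231), periosteum P2 (1659) and periosteum P3 (1148). In bone marrow P2 the ligand Wnt4 came first, at only 57.2 per kb. Wnt5a was the ligand with the highest level per kb in periosteum P2 (356), a value that rested on 1 library. By group mean, 12 of the 51 genes were highest in bone marrow P1, 10 in periosteum P1, 9 in bone marrow P2, 8 in periosteum P2, 5 in muscle P1, 4 in muscle P3 and 3 in muscle P2. None was highest in periosteum P3 or bone marrow P3.

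**Figure D1:**
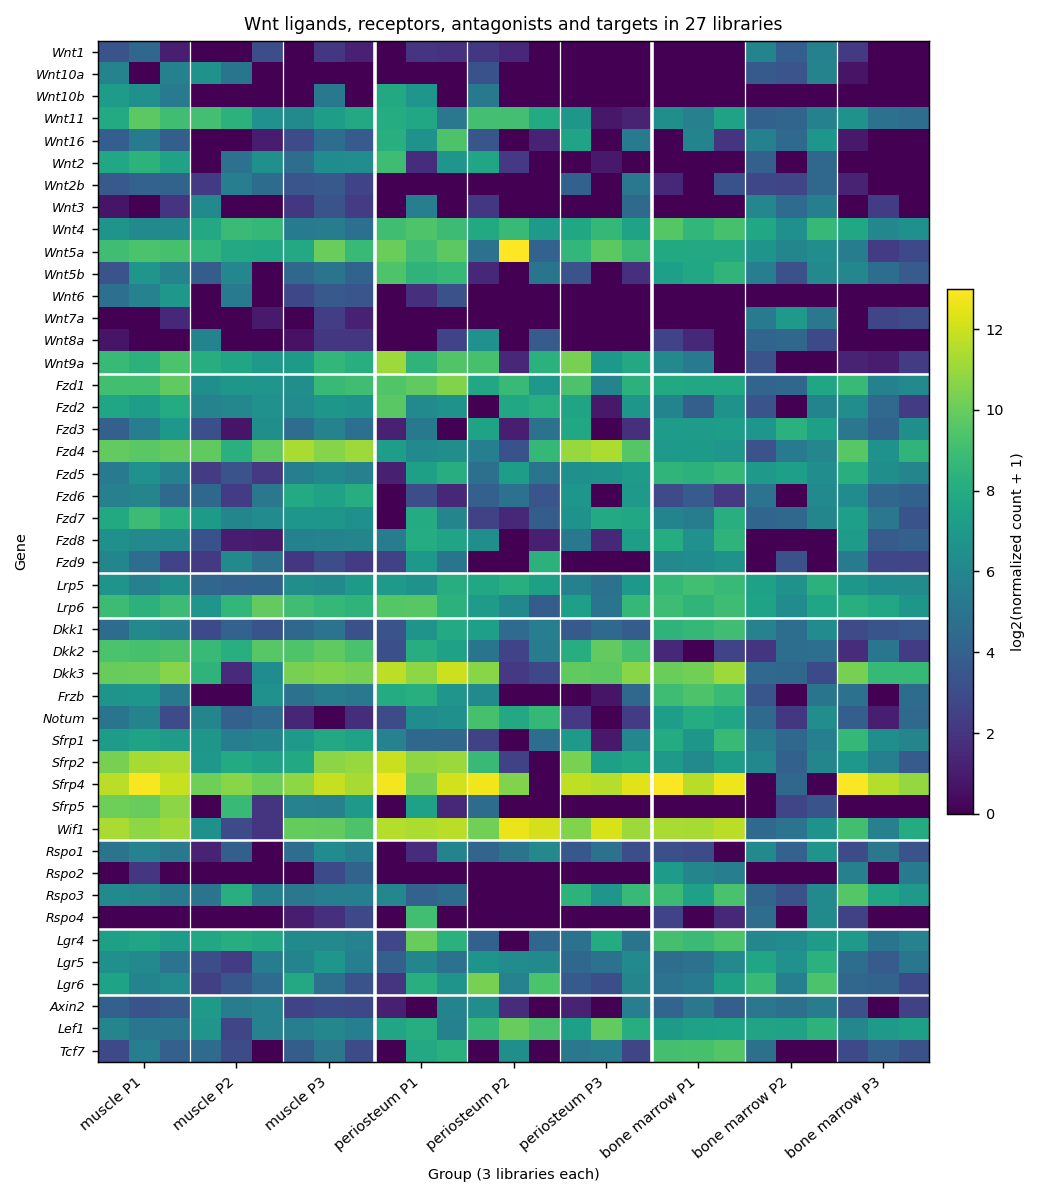
Colour gives log2(normalized count + 1) of the 46 tested genes (rows, grouped by role from ligands at the top to transcription factors and targets at the bottom) in the 27 libraries (columns, 3 for each of the 9 groups). Wif1 and Sfrp4 are bright in most groups, and Sfrp5 is bright in muscle P1 and at 0 in all 3 bone marrow P1 libraries.

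The sorting genes followed the gates. Eng, which encodes CD105, had means from 1195 to 5765 in the P3 groups and from 69.5 to 360 in the others, and Cd200 had means from 2287 to 6725 in P1 and from 23.1 to 396 in P2. Prrx1, the gene whose promoter drives the Cre, was lowest in bone marrow P2 (110 ± 53.3, n = 3) and highest in periosteum P1 (2879 ± 1558, n = 3). Transcripts of other cells stood out in P2. The 8 erythroid markers summed to between 174339 and 289762 in muscle P2, between 3447744 and 9538487 in periosteum P2 and between 8053859 and 12804832 in bone marrow P2, against at most 496731 in any P1 or P3 library. The 7 myofibre markers summed to between 1754497 and 1971369 in muscle P2, against at most 38537 elsewhere. The part of these transcripts in the results was not tested, so counts of called genes that rest on P2 are also given without it where they were recomputed. P2 then had no weight in the comparison, but its libraries stayed in the fit and in its estimate of the spread. In bulk samples, fewer cells of a type and less RNA per cell cannot be told apart.

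Marker lists also differed between the P1 groups. The 10 osteoblast and osteocyte markers summed to between 3034636 and 5134585 in bone marrow P1, between 743680 and 1454007 in periosteum P1 and between 83906 and 148640 in muscle P1, with Sost, the osteocyte antagonist of Lrp5 and Lrp6, at 0 in both skeletal P1 groups. The 6 mural markers summed to between 35394 and 80579 in muscle P1 and to at most 5765 in the other P1 groups. The 8 chondrocyte markers had their highest median in periosteum P2 (350921 to 802219), and the 8 endothelial markers were highest in muscle P3 (39396 to 55440) and periosteum P3 (19930 to 36714). The 8 neutrophil and monocyte markers summed to between 11417 and 228200 in bone marrow, and in 1 periosteum P2 library to 97469 against at most 1664 in the other muscle and periosteum libraries. The 5 tenocyte markers (60.3 to 146492 across libraries), the 6 fibro-adipogenic and adventitial markers (748 to 219111), the 6 marrow stromal markers (939 to 117830), the 5 satellite cell markers (51.6 to 8676), the 5 Schwann cell markers (66.7 to 2649), the 8 B lineage markers (87.6 to 3167), the 10 T and NK lineage markers (28.1 to 2843) and the 5 megakaryocyte markers (1.89 to 14761) completed the lists. Of these, Pax7 was at 0 in periosteum P2, periosteum P3, bone marrow P1, bone marrow P3 and muscle P2.

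Sequence windows around the transcription starts of the genes that were higher in P1 bear on a simple question, namely which of them hold the letters that Tcf7 and Lef1 are known to bind. The window ran from 250 bases before to 50 bases after the RefSeq start on GRCm38.p6, 34 of the 51 genes had one, and 41 windows were searched on both strands for the letters CTTTGA, which read TCAAAG on the other strand. The letters were in 6 of the 41 windows, those of Dkk1, Frzb, Fzd1, Lef1, Wnt5b and Wnt11, and in 16.0% of all 32851 windows. Of the 16 genes higher in P1 over all tissues, 12 had a window and 4 held the letters. Their windows are shown because these 4 genes return in the results, with the TCF/LEF letters in capitals and, in Dkk1, also 1 match to TGTGGT, read as ACCACA on the other strand, the letters bound by RUNX factors, which 16.8% of all windows held. A match describes the sequence and is not a binding site.

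Dkk1 (chr19:30549447-30549746, minus strand; TCF/LEF letters at -174 and -117 from the start, RUNX letters at -207): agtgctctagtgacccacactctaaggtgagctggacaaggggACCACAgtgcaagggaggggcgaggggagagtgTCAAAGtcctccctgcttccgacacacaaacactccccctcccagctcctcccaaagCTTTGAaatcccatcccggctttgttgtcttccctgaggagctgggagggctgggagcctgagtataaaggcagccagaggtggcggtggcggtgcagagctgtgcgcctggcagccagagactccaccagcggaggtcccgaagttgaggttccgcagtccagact

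Frzb (chr2:80447347-80447646, minus strand; TCF/LEF letters at -95): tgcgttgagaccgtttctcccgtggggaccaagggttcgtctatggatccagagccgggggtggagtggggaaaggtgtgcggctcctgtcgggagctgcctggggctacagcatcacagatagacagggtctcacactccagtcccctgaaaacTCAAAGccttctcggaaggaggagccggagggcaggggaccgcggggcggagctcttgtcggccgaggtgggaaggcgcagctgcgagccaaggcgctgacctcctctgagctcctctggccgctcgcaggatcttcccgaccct

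Wnt5b, 1 of its 3 windows (chr6:119449337-119449636, minus strand; TCF/LEF letters at -71): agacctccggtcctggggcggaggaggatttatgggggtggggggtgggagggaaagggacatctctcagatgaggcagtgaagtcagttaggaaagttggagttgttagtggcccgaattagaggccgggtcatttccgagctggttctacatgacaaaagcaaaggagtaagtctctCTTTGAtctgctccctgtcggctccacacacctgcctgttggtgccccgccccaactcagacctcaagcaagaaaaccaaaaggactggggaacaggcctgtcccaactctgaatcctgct

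Fzd1 (chr5:4758167-4758466, minus strand; TCF/LEF letters at -242): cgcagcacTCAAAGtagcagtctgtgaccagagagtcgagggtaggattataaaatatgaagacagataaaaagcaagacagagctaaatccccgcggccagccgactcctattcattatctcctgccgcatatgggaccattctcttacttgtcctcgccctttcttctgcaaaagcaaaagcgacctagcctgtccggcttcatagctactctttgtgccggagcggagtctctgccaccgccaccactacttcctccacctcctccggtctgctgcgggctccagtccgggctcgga

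Tissues were compared first, as the mean over the 3 subpopulations of each. Muscle cells held more of the ligands Wnt6, Wnt2b and Wnt10a, the antagonists Sfrp5, Sfrp1 and Dkk2, the receptors Fzd4 and Fzd7 and Rspo3 than periosteum cells did, and less Wif1, Lef1 and Wnt4. Calls required an adjusted p under 0.05 together with a log2 fold change beyond 1.5 in either direction (limma, Benjamini-Hochberg over 18443 genes). Of the 46 genes tested, 12 were called, 9 higher in muscle (17.2% of all genes were called higher) and 3 lower (3.19%). In order of size they were Sfrp5, Wif1, Wnt6, Sfrp1, Lef1, Wnt2b, Dkk2, Fzd4, Fzd7, Wnt10a, Wnt4 and Rspo3. The calls of Sfrp5, Wnt6 and Wnt10a are descriptions, for the reason given with the filter. The median log2 fold change was 0.70 over these genes and 0.56 over all genes. Quantile normalization moved the all-gene median to -0.01 and the split of called genes in the list from 9 higher and 3 lower to 6 and 9. Over all genes, 1915 were then called higher and 1971 lower. In none of the 12 did the muscle libraries lie apart from the periosteum libraries (3.48% of all genes called here did). Without P2, 8 of the 12 calls were lost, those of Rspo3, Wif1, Wnt10a, Wnt2b, Dkk2, Sfrp1, Fzd7 and Fzd4. The list then had 6 calls, 4 higher and 2 lower, and of all 18443 genes 1629 were higher and 188 lower.

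Against bone marrow, muscle was higher for 7 ligands (Wnt9a, Wnt2, Wnt6, Wnt5a, Wnt10b, Wnt11 and Wnt2b), for the antagonists Dkk2, Sfrp5 and Sfrp2 and for Fzd4. It was lower for Fzd5, Rspo2, Wnt7a, Lef1 and Lrp5. These were 16 called genes, 11 higher (10.9% of all genes) and 5 lower (10.8%), led in size by Dkk2, Sfrp5 and Wnt9a. The calls of Sfrp5, Wnt6, Wnt7a and Rspo2 are descriptions. The median was 0.17, and -0.10 over all genes. Only Dkk2 and Wnt9a had libraries that did not overlap between these tissues (17.4% of all genes called here did not). Without P2, 14 genes were called, 10 higher and 4 lower, and the calls of Wnt11, Lrp5, Lef1, Wnt7a and Fzd5 were lost. Of all 18443 genes, 1676 were then called higher and 870 lower.

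Periosteum differed from bone marrow in 10 genes, 5 higher (4.01% of all genes) and 5 lower (16.8%). Wnt9a, Dkk2, Wif1, Wnt5a and Fzd1 were higher in periosteum, and Fzd3, Rspo2, Rspo3, Sfrp1 and Wnt7a were lower. The median was -0.27 over the list and -0.69 over all genes. Quantile normalization moved the all-gene median to -0.10 and the split within the list to 13 higher and 2 lower. Over all genes, 1582 were then called higher and 1574 lower. Libraries of both tissues overlapped for all 10 genes (5.11% of all genes called here did not overlap). Without P2, 7 genes were called, 5 higher and 2 lower, and the calls of Fzd3, Rspo3, Wif1, Wnt7a and Fzd1 were lost. Of all 18443 genes, 578 were then called higher and 1305 lower. With only the 6 groups of these tissues in the fit Fzd1 was lost (adjusted p = 0.0501).

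P1 was then compared with P2 and P3. Over all tissues P1 held more of 7 secreted antagonists (Frzb, Dkk3, Wif1, Sfrp4, Sfrp2, Dkk1 and Notum), of the ligands Wnt5b, Wnt10b, Wnt16 and Wnt6, of the receptors Fzd8, Fzd9, Fzd1 and Lgr4, and of Tcf7. This comparison averaged the differences within the 3 tissues, so a gene need not be higher in P1 of each. Notum had its highest mean in periosteum P2 (405 ± 181), and Wnt6 and Wnt10b were at 0 in all bone marrow libraries. The calls of Wnt6 and Wnt10b are descriptions, because few P2 and P3 libraries reached 10 for them. All 16 called genes were higher in P1 (6.88% of all genes were called higher), and no tested gene of the list was called lower (7.67%). Wnt7a passed the p threshold in the lower direction but not the fold threshold (-1.38 ± 0.39, adjusted p = 0.0126). The median log2 fold change was 1.32 over the list and -0.12 over all genes. None of the 16 had P1 libraries lying apart from all P2 and P3 libraries (0.224% of all genes called here did). Without P2, that is P1 against P3, 10 genes were called, 9 higher and 1 lower (Fzd4). Of all 18443 genes, 483 were then called higher and 725 lower. Without P2, 9 of the 16 calls were lost, those of Tcf7, Sfrp4, Sfrp2, Wnt16, Dkk3, Wnt6, Fzd8, Fzd1 and Lgr4. Sfrp4 then had a log2 difference of 0.43 (adjusted p = 0.889) and Dkk3 one of 0.83 (adjusted p = 0.686).

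Within muscle only Wif1 and Wnt10b were called, both higher in P1 (0.591% of all genes were called higher and 0.455% lower). Neither was called without P2, where 26 of all 18443 genes were higher and 60 lower. Within periosteum Wnt5b, Frzb, Sfrp2, Wnt16 and Lrp6 were called, all higher in P1 (4.32% higher, 4.84% lower). Without P2, 2 genes were called in periosteum, Wnt5b higher and Fzd4 lower (257 of all 18443 genes higher, 514 lower). With the 3 periosteum groups alone in the fit all 5 were lost, at adjusted p from 0.0843 to 0.337. Within bone marrow 13 genes were called, 11 higher in P1 (7.48%) and 2 lower (11.5%). The 11 were Tcf7, Frzb, Sfrp4, Fzd8, Wif1, Rspo2, Dkk1, Notum, Dkk3, Wnt4 and Lrp5, and the 2 were Wnt7a and Wnt1. For the all-gene calls of this contrast, the share that was higher was 39.5%, 51.8% after quantile normalization and 28.2% with libraries rescaled to one total. Without P2 the calls of Tcf7, Sfrp4, Wnt1, Wnt7a, Dkk3, Fzd8 and Rspo2 were lost. The 6 genes then called were all higher (639 of all 18443 genes higher, 580 lower). The libraries did not overlap for both genes in muscle, for 3 of the 5 in periosteum and for 6 of the 13 in bone marrow, and among all genes called in these comparisons they did not overlap for 69.4%, 39.3% and 67.0%.

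**Figure D2:**
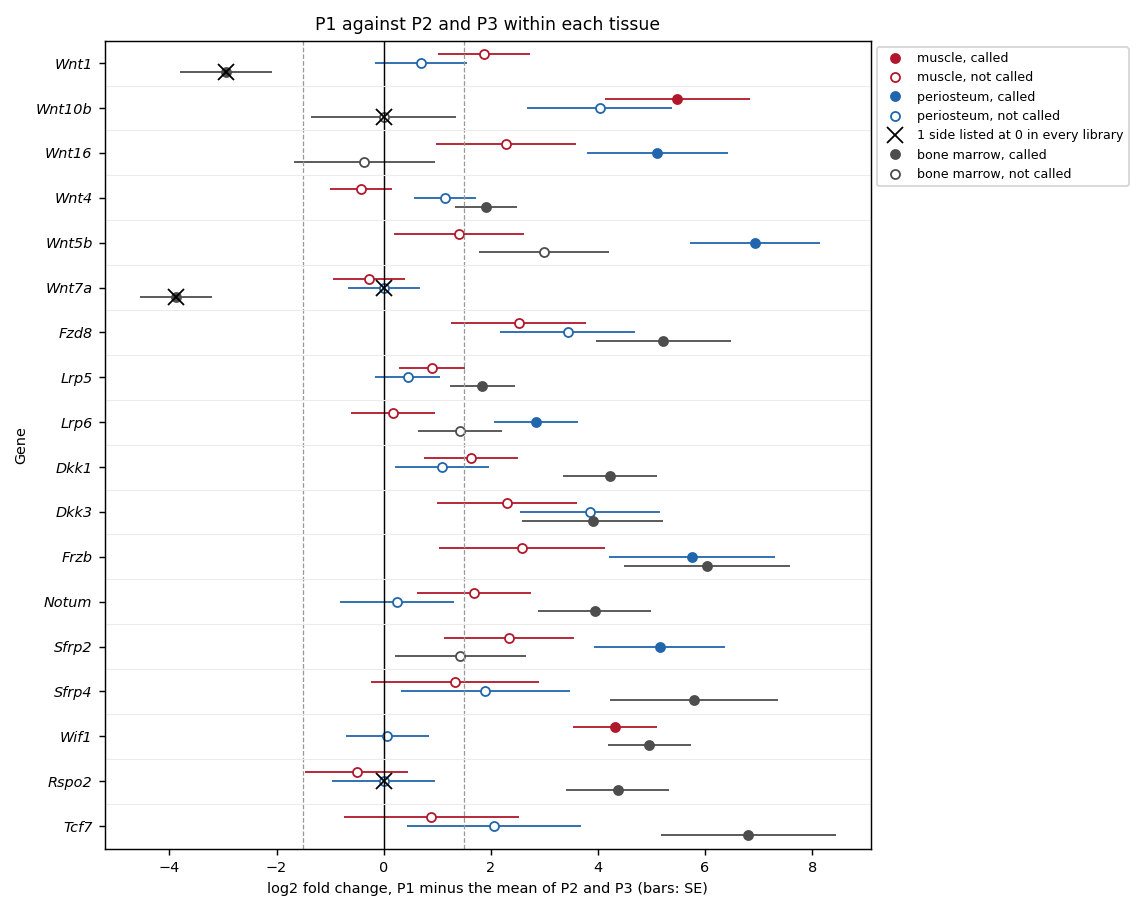
Points give the log2 fold change of P1 against the mean of P2 and P3 in muscle, periosteum and bone marrow for each gene called in at least 1 tissue, with bars for the SE. Filled points were called, dashed lines mark a log2 fold change of 1.5, and crosses mark contrasts with 1 side listed at 0 in every library, whose size depends on the pseudocount. Wif1 was called in muscle and bone marrow and lay near 0 in periosteum.

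Since the P1 groups were set apart by tissue in the study, P1 cells were compared between tissues. Muscle P1 cells held more Sfrp5, Wnt6 and Wnt2b and less Wnt4 than periosteum P1 cells, 3 higher (4.34% of all genes) and 1 lower (0.558%). Against bone marrow P1 cells they held more Sfrp5, Dkk2, Wnt2, Wnt10b and Wnt6 and less Rspo2, Dkk1, Wnt4 and Lrp5, 5 higher (5.4%) and 4 lower (2.94%). Periosteum P1 cells held more Wnt9a, Wnt16 and Dkk2 and less Rspo2 and Rspo3 than bone marrow P1 cells, 3 higher (1.91%) and 2 lower (2.96%). In all 18 of these calls the libraries of the tissues compared did not overlap, as in 96.7%, 99.1% and 97.4% of all genes called in these comparisons, in the same order. The 3 comparisons share groups, so their calls are not independent of each other.

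Scaling changed how many genes were called in each direction in these P1 comparisons. With libraries rescaled to one total, the 5 higher and 4 lower calls of muscle against bone marrow became 8 and 1, and with quantile normalization 8 and 8. Over all genes the calls were 1442 higher and 351 lower when rescaled, and 1033 and 810 with quantile normalization. The 3 higher and 2 lower calls of periosteum against bone marrow became 4 and 1 and, with quantile normalization, 6 and 1. Here the calls over all genes were 509 higher and 358 lower when rescaled, and 495 and 374 with quantile normalization. No called gene changed its direction under either scaling. With only the groups compared in the fit, 4 of the 5 calls of periosteum against bone marrow were lost (Wnt9a, Rspo3, Dkk2 and Wnt16), and Sfrp5 and Wnt6 were lost for muscle against periosteum (adjusted p = 0.151 and adjusted p = 0.167).

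**Figure D3:**
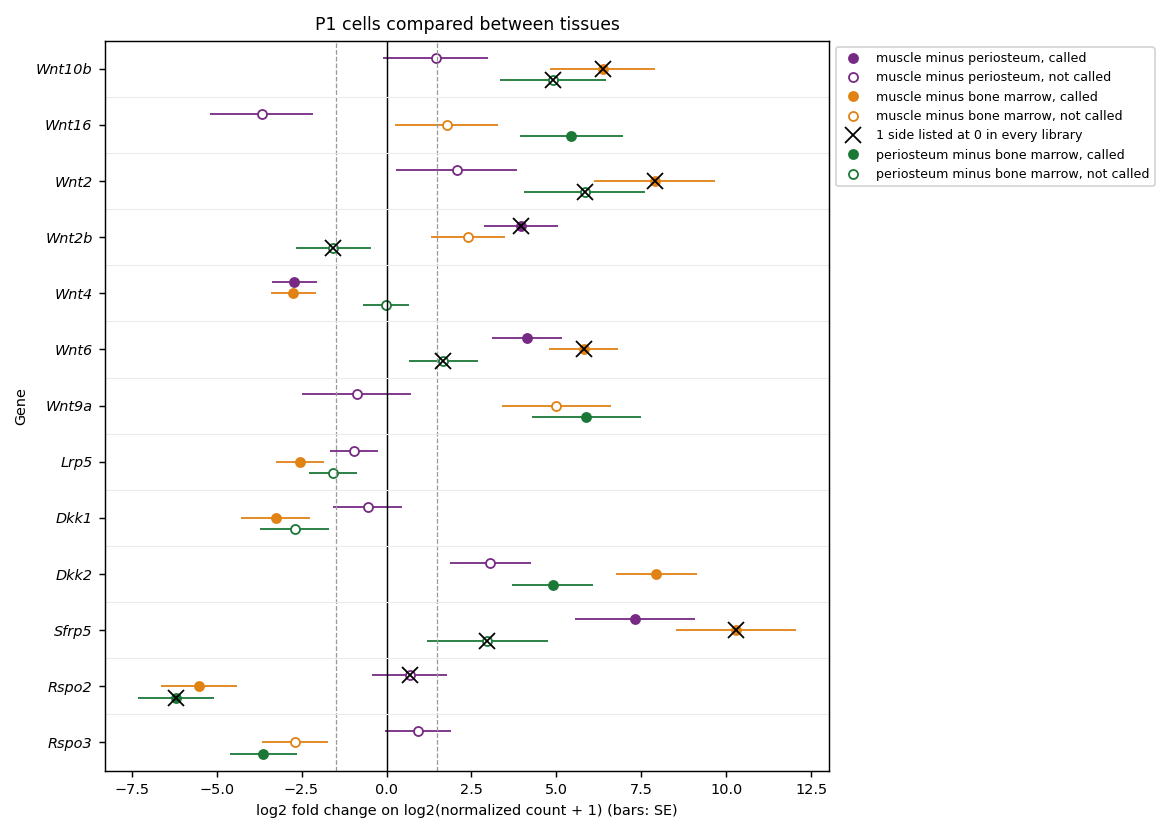
Points give the log2 fold change between tissues in P1 cells, with bars for the SE, for each gene called in at least 1 of the 3 comparisons. Filled points were called, dashed lines mark 1.5, and crosses mark contrasts with 1 side listed at 0 in every library. Dkk2 lay to the right in both comparisons with bone marrow and Rspo2 to the left.

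Among the ligands, 15 of 19 were tested and 13 differed among the 9 groups (limma F test), where 39 of all 46 tested genes did and 60.2% of all genes. Wnt4, a ligand that acts in kidney and gonad development as well as in bone, was above 0 in all 27 libraries (chr4:137277489-137299726). In muscle it stood at 105, 72.4 and 74.3 in P1, 230, 457 and 400 in P2, and 40.4, 42.6 and 25.6 in P3. In periosteum its normalized counts were 512, 673 and 478 in P1, 240, 452 and 128 in P2, and 225, 396 and 179 in P3. Bone marrow libraries had 758, 391 and 585 in P1, 217, 89.9 and 413 in P2, and 214, 65.3 and 92.5 in P3. Muscle P3 was the lowest group, and all 3 muscle P1 libraries lay below every periosteum P1 and bone marrow P1 library. Wnt4 was lower in muscle than in periosteum (log2 fold change -1.66 ± 0.39, adjusted p = 0.003). In P1 cells the differences were larger, muscle minus periosteum -2.71 ± 0.67, adjusted p = 0.0169, and muscle minus bone marrow -2.74 ± 0.67, adjusted p = 0.00863. The first of these calls was lost without muscle P1 replicate 2 (adjusted p = 0.0664) or muscle P1 replicate 3 (adjusted p = 0.0671), and the second without bone marrow P1 replicate 1 (adjusted p = 0.0508). In bone marrow Wnt4 was higher in P1 (1.91 ± 0.58, adjusted p = 0.022), a call lost without bone marrow P1 replicate 1 (adjusted p = 0.113), bone marrow P1 replicate 3 (adjusted p = 0.0787) or bone marrow P3 replicate 2 (adjusted p = 0.053).

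Wnt9a takes part in joint formation (chr11:59306928-59333552). Its muscle values were 428, 330 and 636 in P1, 273, 201 and 126 in P2, and 135, 386 and 282 in P3. Periosteum held 2187, 355 and 718 in P1, 603, 1.72 and 318 in P2, and 1277, 119 and 227 in P3. In marrow it stood at 67.8, 38.9 and 0 in P1, 9.02, 0 and 0 in P2, and 1.43, 0.959 and 3.76 in P3. Every muscle library lay above every bone marrow library, and the 3 periosteum P1 libraries spread over a wide range. The log2 fold change against bone marrow was 5.97 ± 0.93, adjusted p = 2.44e-05 for muscle and 5.98 ± 0.93, adjusted p = 4.64e-05 for periosteum. In P1 cells periosteum exceeded bone marrow (5.88 ± 1.61, adjusted p = 0.032), and this call was lost without periosteum P1 replicate 1 (adjusted p = 0.137), periosteum P1 replicate 3 (adjusted p = 0.0521) or bone marrow P1 replicate 3 (adjusted p = 0.232).

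Wnt5a, the main ligand of β-catenin-independent signalling (chr14:28504750-28527448), was at 525, 628 and 600 in P1, 378, 232 and 213 in P2, and 233, 1053 and 441 in P3 in muscle. Its periosteum counts were 1081, 519 and 844 in P1, 27.4, 8318 and 16 in P2, and 387, 854 and 457 in P3. Among bone marrow libraries it reached 235, 226 and 226 in P1, 105, 61.1 and 81.8 in P2, and 44.7, 3.85 and 6.3 in P3. The periosteum P2 mean of 2787 ± 4790 came from 1 library, and the other P2 libraries of that tissue were the lowest of periosteum. Both muscle (2.80 ± 0.79, adjusted p = 0.00972) and periosteum (2.74 ± 0.79, adjusted p = 0.0135) were higher than bone marrow, and leaving out any 1 library ended neither call.

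Wnt5b is the closest relative of Wnt5a and is known from cartilage growth (chr6:119432531-119544347). Muscle libraries had 8.95, 110 and 55.2 in P1, 13.2, 62.9 and 0 in P2, and 19.3, 31.1 and 17.5 in P3. Periosteum had 686, 344 and 422 in P1, 1.7, 0 and 32.7 in P2, and 9.1, 0 and 2.34 in P3. Bone marrow had 163, 221 and 364 in P1, 45.4, 8.47 and 67.9 in P2, and 64.4, 25.1 and 12.3 in P3. All 3 periosteum P1 libraries lay above every P2 and P3 library of that tissue, and so did the bone marrow P1 libraries in theirs. Levels in P1 were higher over all tissues (log2 fold change 3.78 ± 0.70, adjusted p = 0.000379) and within periosteum (6.93 ± 1.21, adjusted p = 0.000446). Within bone marrow the difference was 2.99 ± 1.21, adjusted p = 0.0833, which was not called.

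Wnt16, a ligand known for its role in cortical bone (chr6:22288227-22298522), stood at 14, 38.4 and 14.3 in P1, 0, 0 and 1.06 in P2, and 7.13, 25.4 and 12.2 in P3 in muscle. In periosteum it had 285, 96.2 and 660 in P1, 10, 0 and 1.36 in P2, and 194, 0 and 38.2 in P3. Bone marrow showed 0, 56.5 and 2.93 in P1, 50.8, 20.5 and 113 in P2, and 0.827, 0 and 0 in P3. Periosteum P1 had the highest mean, and within periosteum 1 P3 library lay in its range. The P1 difference was 2.35 ± 0.76, adjusted p = 0.0289 over all tissues and 5.11 ± 1.31, adjusted p = 0.0136 within periosteum, and periosteum P1 exceeded bone marrow P1 by 5.44 ± 1.51, adjusted p = 0.0355. The first was lost without muscle P1 replicate 2 (adjusted p = 0.0657), periosteum P1 replicate 3 (adjusted p = 0.0631) or bone marrow P1 replicate 2 (adjusted p = 0.0927), the second without periosteum P1 replicate 1 (adjusted p = 0.0507) or periosteum P1 replicate 3 (adjusted p = 0.072), and the third without any 1 of 4 libraries of periosteum P1 and bone marrow P1 (adjusted p from 0.0926 to 0.202).

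Wnt10b, a canonical ligand that favours bone over fat, lies next to Wnt1 (chr15:98770712-98778150 and chr15:98789857-98793837). It was at 141, 91.5 and 40.8 in P1, 0 in all 3 P2 libraries, and 0, 37.6 and 0 in P3 in muscle. In periosteum it was at 236, 112 and 0 in P1, 36.7, 0 and 0 in P2, and 0 in all 3 P3 libraries. In bone marrow it was listed at 0 in all 9 libraries. In muscle the 3 P1 libraries lay above all P2 and P3 libraries. The level in P1 was higher over all tissues (log2 fold change 3.17 ± 0.78, adjusted p = 0.00503) and within muscle (5.48 ± 1.35, adjusted p = 0.04). The call over all tissues is a description, because Wnt10b reached 10 in too few P2 and P3 libraries. The muscle call was lost without any 1 of 14 libraries from 6 groups (adjusted p from 0.0503 to 0.22), and it was also lost with a pseudocount of 0.1 (adjusted p = 0.0673) and without the filter (adjusted p = 0.0663). Muscle exceeded bone marrow over all subpopulations (adjusted p = 0.0263) and in P1 cells (adjusted p = 0.00863), with no fold given against a tissue listed at 0. The first of these was lost without muscle P3 replicate 2 (adjusted p = 0.0712). Wnt1 had its highest group mean in bone marrow P2 (40.7 ± 23.3) and was listed at 0 in all 3 bone marrow P1 libraries, and it was called lower in bone marrow P1 (adjusted p = 0.0171), a call lost without bone marrow P1 replicate 1 (adjusted p = 0.0594), bone marrow P1 replicate 2 (adjusted p = 0.0608) or bone marrow P1 replicate 3 (adjusted p = 0.0577).

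Wnt2 (chr6:17988940-18030585) is a canonical ligand. Its muscle libraries had 215, 342 and 180 in P1, 0, 28.9 and 92.5 in P2, and 25.1, 80.2 and 83.1 in P3. Its periosteum libraries had 500, 2.23 and 113 in P1, 207, 3.43 and 0 in P2, and 0, 0.869 and 0 in P3. Its bone marrow libraries had 0 in all 3 P1 libraries, 14.9, 0 and 19.1 in P2, and 0 in all 3 P3 libraries. All 3 muscle P1 libraries stood above the other muscle libraries, while periosteum P1 spread from 2.23 to 500. Muscle was higher than bone marrow (log2 fold change 4.92 ± 1.03, adjusted p = 0.000742), and muscle P1 was higher than bone marrow P1, listed at 0 (adjusted p = 0.00442).

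Wnt11, another ligand of the β-catenin-independent branch (chr7:98835112-98855195), was detected in every library. Muscle had 244, 843 and 523 in P1, 550, 324 and 95.1 in P2, and 71.2, 157 and 227 in P3. Periosteum had 267, 212 and 36.5 in P1, 547, 561 and 244 in P2, and 116, 0.814 and 1.45 in P3. Bone marrow had 89, 49.8 and 180 in P1, 15.5, 18.1 and 51.2 in P2, and 96.3, 28.3 and 24.3 in P3. Muscle was higher than bone marrow (log2 fold change 2.47 ± 0.70, adjusted p = 0.00937), although the tissues overlapped, with 180 in bone marrow P1 replicate 3.

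Low-level ligands added to these. Wnt6 and its neighbour Wnt10a (chr1:74771892-74785322 and chr1:74791516-74804179) both had their highest means in muscle, Wnt6 in P1 (66.2 ± 48.9, n = 3) and Wnt10a in P2 (43.1 ± 49.3, n = 3). Wnt6 was listed at 0 in all 9 bone marrow libraries, and muscle exceeded bone marrow overall (adjusted p = 4.48e-05, a call that the filter fixed) and in P1 cells (adjusted p = 0.000426). Among P1 libraries only those of muscle reached 10 for Wnt6, so its calls between P1 cells are descriptions. Its call in P1 over all tissues is a description too, because too few P2 and P3 libraries reached 10. Muscle also exceeded periosteum for Wnt6 (log2 fold change 3.07 ± 0.59, adjusted p = 0.000583), Wnt10a (2.21 ± 0.79, adjusted p = 0.0444) and Wnt2b (2.74 ± 0.63, adjusted p = 0.00273). The Wnt10a call was lost without any 1 of 22 libraries from 9 groups (adjusted p from 0.0502 to 0.101). In P1 cells Wnt6 was higher in muscle than in periosteum (4.13 ± 1.02, adjusted p = 0.0172) and was lost without muscle P1 replicate 2 (adjusted p = 0.0535), muscle P1 replicate 3 (adjusted p = 0.0976) or periosteum P1 replicate 1 (adjusted p = 0.117), and over all tissues it was higher in P1 (1.64 ± 0.51, adjusted p = 0.0243), a call lost by the p or the fold threshold without any 1 of 4 libraries of muscle P1, muscle P2 and periosteum P1 (adjusted p from 0.0354 to 0.0646). Wnt2b was at 14.7 ± 2.76 (n = 3) in muscle P1 and listed at 0 in all periosteum P1 libraries (adjusted p = 0.0333), a call lost without any 1 of 6 libraries of muscle P1 and periosteum P1 (adjusted p from 0.0631 to 0.105). Wnt2b was also higher in muscle than in bone marrow (2.01 ± 0.63, adjusted p = 0.0188), which was lost without bone marrow P1 replicate 2 (adjusted p = 0.0502).

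Wnt7a was nearly confined to bone marrow P2 among these 27 libraries (66.6 ± 49.9, n = 3), with values of at most 7.13 elsewhere and 0 in all 9 periosteum libraries. It was called lower in muscle than in bone marrow (log2 fold change -1.93 ± 0.45, adjusted p = 0.00187), lower in periosteum (adjusted p = 0.000157) and lower in bone marrow P1 than in P2 and P3 (adjusted p = 0.000181), with no library outside bone marrow P2 at 10 or more. Erythroid markers were also highest in bone marrow P2, and their part in the Wnt7a and Wnt1 levels was not tested. Wnt3 and Wnt8a were called in no comparison of 2 groups, with group means of at most 44.5 and 35.4.

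**Figure D4:**
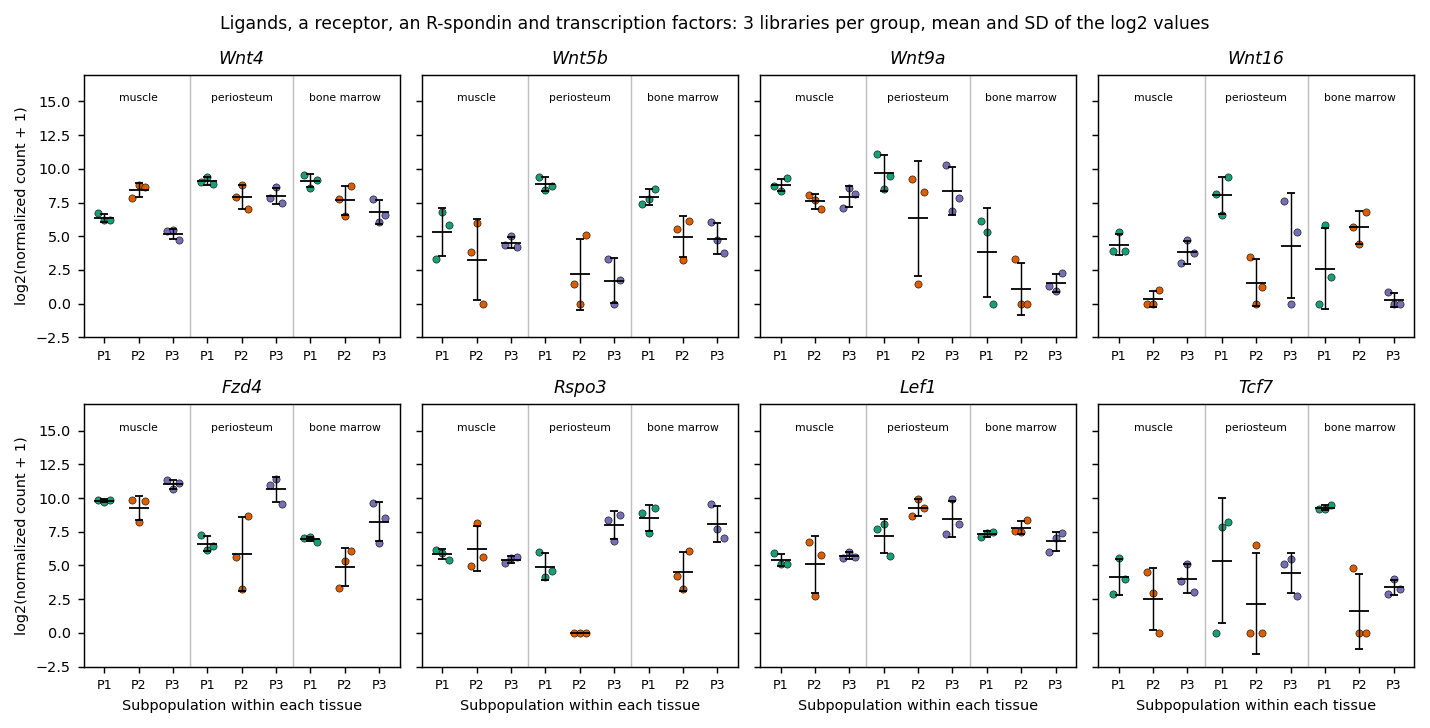
Points give log2(normalized count + 1) of 8 genes in each library by subpopulation and tissue, and the black marks give the mean and SD of the 3 log2 values. Wnt9a is low in all bone marrow groups, Fzd4 is highest in P3 of each tissue, and Tcf7 is high and tight in bone marrow P1.

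Of the 10 Frizzled receptors, the membrane proteins that bind Wnts, 9 were tested and 7 were called in at least 1 of the 10 comparisons, as were 51.8% of all genes. Fzd4 also binds Norrin in blood vessel growth (chr7:89404355-89413134). In muscle it was at 936, 824 and 945 in P1, 911, 302 and 867 in P2, and 2572, 1621 and 2195 in P3. In periosteum it was at 150, 71.2 and 85.8 in P1, 48.5, 8.57 and 409 in P2, and 2029, 2668 and 759 in P3. In marrow it was at 129, 136 and 108 in P1, 9.07, 39.4 and 64.7 in P2, and 779, 101 and 361 in P3. P3 was the high group in each tissue, and in muscle and periosteum the P3 libraries lay above those of P1 and P2. Endothelial markers were also highest in P3 of each tissue, with Pecam1 at 8355 ± 2237 (n = 3) in muscle P3 and 826 ± 291 (n = 3) in muscle P1, and their part in the Fzd4 levels was not tested. Muscle exceeded periosteum (log2 fold change 2.33 ± 0.56, adjusted p = 0.00407) and bone marrow (3.33 ± 0.56, adjusted p = 7.08e-05).

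Fzd1 is a receptor of canonical Wnts (chr5:4753839-4758035), and its promoter is shown above. Muscle had 542, 539 and 898 in P1, 87.2, 116 and 108 in P2, and 85.2, 455 and 510 in P3. Periosteum had 710, 901 and 1500 in P1, 224, 448 and 120 in P2, and 649, 56.3 and 325 in P3. Bone marrow had 241, 212 and 218 in P1, 18.1, 19.7 and 197 in P2, and 448, 51.9 and 70.8 in P3. In muscle and in periosteum the P1 libraries stood above all P2 and P3 libraries, and in bone marrow the range of P3 covered that of P1. Higher levels were found in P1 over all tissues (log2 fold change 1.89 ± 0.49, adjusted p = 0.00743), and periosteum was higher than bone marrow (1.84 ± 0.57, adjusted p = 0.0194).

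Fzd8, another Frizzled receptor, was at 92.2, 68.1 and 74.8 in P1, 8.64, 1.01 and 0.942 in P2, and 50.7, 55.7 and 59.5 in P3 in muscle. Its periosteum libraries held 43.5, 260 and 193 in P1, 86.9, 0 and 1.21 in P2, and 37.2, 1.73 and 155 in P3. In bone marrow they held 262, 95.6 and 353 in P1, 0 in all 3 P2 libraries, and 138, 12.5 and 15.1 in P3. The bone marrow P2 libraries were at 0 and P1 and P3 overlapped. P1 was higher over all tissues (log2 fold change 3.72 ± 0.72, adjusted p = 0.000631) and within bone marrow (5.22 ± 1.26, adjusted p = 0.00439). Fzd9 (chr5:135248938-135251230), a receptor that osteoblasts need for normal bone formation, had 62.6, 25.1 and 5.09 in P1, 3.59, 70 and 28.1 in P2, and 3.28, 7.36 and 3.83 in P3 in muscle. It had 4.65, 120 and 32.6 in P1, 0, 0 and 331 in P2, and 0 in all 3 P3 libraries in periosteum. It had 69.3, 77.7 and 101 in P1, 0, 8.38 and 0 in P2, and 39.2, 5.73 and 5.62 in P3 in bone marrow. Bone marrow P1 lay above P2 and P3 of that tissue, while 1 periosteum P2 library at 331 was the highest of all. The P1 difference over all tissues was 2.82 ± 0.83, adjusted p = 0.0179.

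Fzd5, needed for vessels of the yolk sac and placenta (chr1:64730558-64737751), had muscle values of 40.8, 93.2 and 52 in P1, 3.89, 9.08 and 3.39 in P2, and 47.2, 66.3 and 49.5 in P3. Periosteum values were 1.18, 167 and 270 in P1, 27.1, 150 and 31.1 in P2, and 91.1, 100 and 144 in P3. Bone marrow values were 359, 326 and 406 in P1, 124, 160 and 81.5 in P2, and 283, 89.2 and 60.3 in P3. Muscle P2 was the lowest group and bone marrow P1 the highest, and muscle was lower than bone marrow (log2 fold change -2.67 ± 0.70, adjusted p = 0.00519). Fzd3, which acts in planar cell polarity (chr14:65192449-65262463), was at 14.6, 45.5 and 119 in P1, 7.99, 0.661 and 89.5 in P2, and 24.9, 54.8 and 26.3 in P3 in muscle. It was at 1.29, 36.6 and 0 in P1, 184, 1.12 and 27.7 in P2, and 223, 0 and 2.37 in P3 in periosteum. It was at 145, 141 and 148 in P1, 111, 315 and 160 in P2, and 34.8, 17 and 89.2 in P3 in bone marrow. Within periosteum each group held libraries both near 0 and above 25, and periosteum was lower than bone marrow (log2 fold change -3.38 ± 1.03, adjusted p = 0.018), while the F test over the 9 groups did not call Fzd3.

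Fzd7, a receptor of Wnt7a on muscle stem cells (chr1:59482424-59486955), was at 240, 480 and 296 in P1, 133, 62.4 and 76.3 in P2, and 113, 116 and 91.5 in P3 in muscle. In periosteum it was at 0, 251 and 59.7 in P1, 5.02, 1.72 and 13.3 in P2, and 99.9, 243 and 219 in P3. Among bone marrow libraries it was at 57.8, 42.5 and 297 in P1, 18.1, 19.7 and 61.3 in P2, and 163, 34.6 and 9.44 in P3. Periosteum P2 was the low group, and muscle exceeded periosteum (log2 fold change 2.27 ± 0.80, adjusted p = 0.0395), a call lost without any 1 of 11 libraries from 6 groups (adjusted p from 0.0521 to 0.0704). Fzd2 and Fzd6 were called in no comparison of 2 groups. Fzd6 had its highest mean in muscle P3 (232 ± 47.0, n = 3) and Fzd2 in periosteum P1 (325 ± 413, n = 3), the latter with 1 library at 802.

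Both co-receptors were above 10 in every library. Lrp5, mutated in inherited high and low bone mass (chr19:3584828-3686564), stood at 104, 49.9 and 89 in P1, 18.7, 16.2 and 17.3 in P2, and 86.2, 73.8 and 134 in P3 in muscle. Periosteum libraries stood at 124, 101 and 278 in P1, 212, 288 and 167 in P2, and 51, 28.9 and 119 in P3. Bone marrow libraries stood at 398, 539 and 438 in P1, 173, 99.1 and 323 in P2, and 118, 79.5 and 77.1 in P3. The 3 bone marrow P1 libraries were above every other library of the series. Lrp5 was lower in muscle than in bone marrow (log2 fold change -1.91 ± 0.40, adjusted p = 0.000781), lower in muscle P1 than in bone marrow P1 (-2.54 ± 0.70, adjusted p = 0.0202) and higher in P1 within bone marrow (1.84 ± 0.61, adjusted p = 0.0332). The second call was lost without any 1 of 5 libraries of muscle P1 and bone marrow P1 (adjusted p from 0.0503 to 0.111), and the third without any 1 of 7 libraries of bone marrow P1, bone marrow P2 and bone marrow P3 (adjusted p from 0.0541 to 0.128).

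Lrp6, its close relative (chr6:134446476-134566965), was at 473, 331 and 485 in P1, 107, 386 and 926 in P2, and 512, 408 and 347 in P3 in muscle. It was at 771, 781 and 328 in P1, 144, 65 and 13.3 in P2, and 160, 30.9 and 410 in P3 in periosteum. It was at 494, 357 and 503 in P1, 185, 75.2 and 209 in P2, and 281, 222 and 116 in P3 in bone marrow. In periosteum 1 P3 library overlapped the P1 range. P1 was higher within periosteum (log2 fold change 2.84 ± 0.78, adjusted p = 0.0201), which was lost without periosteum P1 replicate 1 (adjusted p = 0.0864) or periosteum P1 replicate 2 (adjusted p = 0.0739).

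The secreted antagonists were the group with most calls in P1, 7 of 10 over all tissues (6.88% of all genes were called higher). Of these 7, Sfrp4, Sfrp2 and Dkk3 were lost without P2. Wif1, which binds Wnts through its WIF domain (chr10:121033960-121100650), had muscle counts of 2567, 1777 and 2302 in P1, 90.6, 6.98 and 3.01 in P2, and 957, 933 and 666 in P3. In periosteum it had 3039, 2665 and 3258 in P1, 1197, 6343 and 4540 in P2, and 1504, 4690 and 2165 in P3. In bone marrow it had 2598, 2531 and 3172 in P1, 20.8, 29.5 and 101 in P2, and 531, 49.8 and 259 in P3. P1 stood above P2 and P3 in muscle and in bone marrow without overlap, and in periosteum all 9 libraries were above 1000. Levels in P1 were higher over all tissues (log2 fold change 3.12 ± 0.45, adjusted p = 1.96e-05), in muscle (4.32 ± 0.78, adjusted p = 0.00295) and in bone marrow (4.96 ± 0.78, adjusted p = 6.31e-05). Over all subpopulations, muscle was lower than periosteum (-3.28 ± 0.52, adjusted p = 7.18e-05) and periosteum higher than bone marrow (3.38 ± 0.52, adjusted p = 4.39e-05).

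The P1 change of Wif1 was tested for a difference between tissues. Periosteum minus muscle was -4.25 ± 1.11, adjusted p = 0.039, and periosteum minus bone marrow was -4.89 ± 1.11, adjusted p = 0.016. The first was lost without any 1 of 14 libraries from 5 groups (adjusted p from 0.0504 to 0.109), and both were lost without P2 (adjusted p = 0.901 and adjusted p = 0.27). Of the 46 genes, 1 was called for periosteum minus muscle (2.44% of all genes were called), 3 for bone marrow minus muscle (7.42%) and 2 for periosteum minus bone marrow (2.8%). Without P2 there were 0 calls in each (46, 368 and 99 of all 18443 genes), with an unadjusted p below 0.05 (limma) in 5, 6 and 8 of the 46 genes. The other 4 calls were those of Wnt1 (adjusted p = 0.0153) and Rspo2 (adjusted p = 0.0282) for bone marrow minus muscle, and of Wnt7a for bone marrow minus muscle (adjusted p = 0.0196) and for periosteum minus bone marrow (adjusted p = 0.0268), each with groups listed at 0. Those of Wnt7a and Wnt1 rest on the libraries that took these genes past the filter and are descriptions. Wnt1 was lost without muscle P1 replicate 2 (adjusted p = 0.0639), Rspo2 without any 1 of 5 libraries of muscle P1, muscle P3 and bone marrow P1 (adjusted p from 0.051 to 0.0909), and Wnt7a without muscle P1 replicate 3 (adjusted p = 0.0774) or bone marrow P1 replicate 2 (adjusted p = 0.0508) in the first and without bone marrow P1 replicate 1 (adjusted p = 0.0684), bone marrow P1 replicate 2 (adjusted p = 0.0741) or bone marrow P1 replicate 3 (adjusted p = 0.0616) in the second.

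Sfrp4, a secreted Frizzled-related protein linked to cortical bone thickness (chr13:19623104-19632994), was at 3260, 7371 and 3910 in P1, 1129, 1632 and 1134 in P2, and 1801, 3701 and 2511 in P3 in muscle. In periosteum it was at 7082, 1238 and 4464 in P1, 6695, 1503 and 0 in P2, and 3469, 2982 and 5388 in P3. In marrow it was at 7764, 3153 and 6540 in P1, 0, 19.5 and 0 in P2, and 7695, 2979 and 1937 in P3. Bone marrow P2 was near 0, while the ranges of bone marrow P1 and P3 overlapped. The level in P1 was higher over all tissues (log2 fold change 3.01 ± 0.90, adjusted p = 0.0199) and in bone marrow (5.79 ± 1.57, adjusted p = 0.0104), and the latter was lost without bone marrow P1 replicate 1 (adjusted p = 0.0504).

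Sfrp2 (chr3:83766321-83774316) is a relative made by fibroblast-like cells. Muscle had 1270, 2537 and 2694 in P1, 121, 242 and 177 in P2, and 241, 1713 and 2015 in P3. Periosteum had 3997, 1839 and 2101 in P1, 455, 4.74 and 0 in P2, and 1356, 165 and 199 in P3. Bone marrow had 128, 74.5 and 150 in P1, 67.2, 15.4 and 61.5 in P2, and 120, 48.6 and 12.4 in P3. All bone marrow libraries were at or below 150, and the periosteum P1 libraries lay above those of P2 and P3. Higher levels were found in P1 over all tissues (log2 fold change 2.98 ± 0.71, adjusted p = 0.00383) and in periosteum (5.15 ± 1.22, adjusted p = 0.00787), and muscle exceeded bone marrow (3.57 ± 0.82, adjusted p = 0.00168).

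Sfrp5, a further Frizzled-related protein (chr19:42197971-42202252), stood out in muscle P1. Muscle libraries held 1123, 1005 and 1726 in P1, 0, 436 and 2.83 in P2, and 54.1, 49.1 and 128 in P3. Periosteum libraries held 0, 173 and 1.76 in P1, 23.4, 0 and 0 in P2, and 0 in all 3 P3 libraries. Bone marrow libraries held 0 in all 3 P1 libraries, 0, 5.54 and 9.51 in P2, and 0 in all 3 P3 libraries. The 3 muscle P1 libraries exceeded every other library, and all bone marrow P1 libraries were listed at 0. Muscle P1 exceeded periosteum P1 (log2 fold change 7.32 ± 1.77, adjusted p = 0.0147), lost without muscle P1 replicate 3 (adjusted p = 0.0597), periosteum P1 replicate 1 (adjusted p = 0.103) or periosteum P1 replicate 3 (adjusted p = 0.0511), and bone marrow P1 (adjusted p = 0.000313). Over all subpopulations muscle exceeded periosteum (5.17 ± 1.02, adjusted p = 0.00073) and bone marrow (5.99 ± 1.02, adjusted p = 7.4e-05). These calls over all subpopulations are descriptions, because Sfrp5 reached 10 in too few libraries outside muscle. Mural markers were also highest in muscle P1, and their part in the Sfrp5 levels was not tested.

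Sfrp1, whose loss raises bone mass in mice (chr8:23411502-23449632), had 139, 179 and 139 in P1, 117, 45.6 and 57.4 in P2, and 128, 229 and 177 in P3 in muscle. It had 52.8, 20 and 18.4 in P1, 5.02, 0 and 25.4 in P2, and 124, 0.865 and 62.9 in P3 in periosteum. It had 253, 115 and 452 in P1, 45.2, 19.7 and 48.4 in P2, and 407, 86.5 and 58.5 in P3 in bone marrow. Periosteum P2 was the lowest group. Muscle exceeded periosteum (log2 fold change 2.97 ± 0.73, adjusted p = 0.0045), and periosteum was lower than bone marrow (-2.74 ± 0.73, adjusted p = 0.00784), which quantile normalization ended (adjusted p = 0.0756).

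Frzb, also named sFRP3 and known from cartilage (chr2:80411970-80447625), stood at 105, 112 and 37.5 in P1, 0, 0 and 95.4 in P2, and 28.4, 43.9 and 35.9 in P3 in muscle. It stood at 258, 281 and 107 in P1, 70.1, 0 and 0 in P2, and 0, 0.684 and 20 in P3 in periosteum. It stood at 493, 652 and 455 in P1, 10.1, 0 and 32.4 in P2, and 29.2, 0 and 23 in P3 in bone marrow. P1 lay above P2 and P3 without overlap in periosteum and in bone marrow, and in muscle 1 P2 and 1 P3 library lay in the P1 range. P1 was higher over all tissues (log2 fold change 4.79 ± 0.90, adjusted p = 0.000416), in periosteum (5.76 ± 1.55, adjusted p = 0.0189) and in bone marrow (6.04 ± 1.55, adjusted p = 0.00706). The periosteum call was lost without periosteum P1 replicate 1 (adjusted p = 0.0726) or periosteum P1 replicate 2 (adjusted p = 0.0621).

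**Figure D5:**
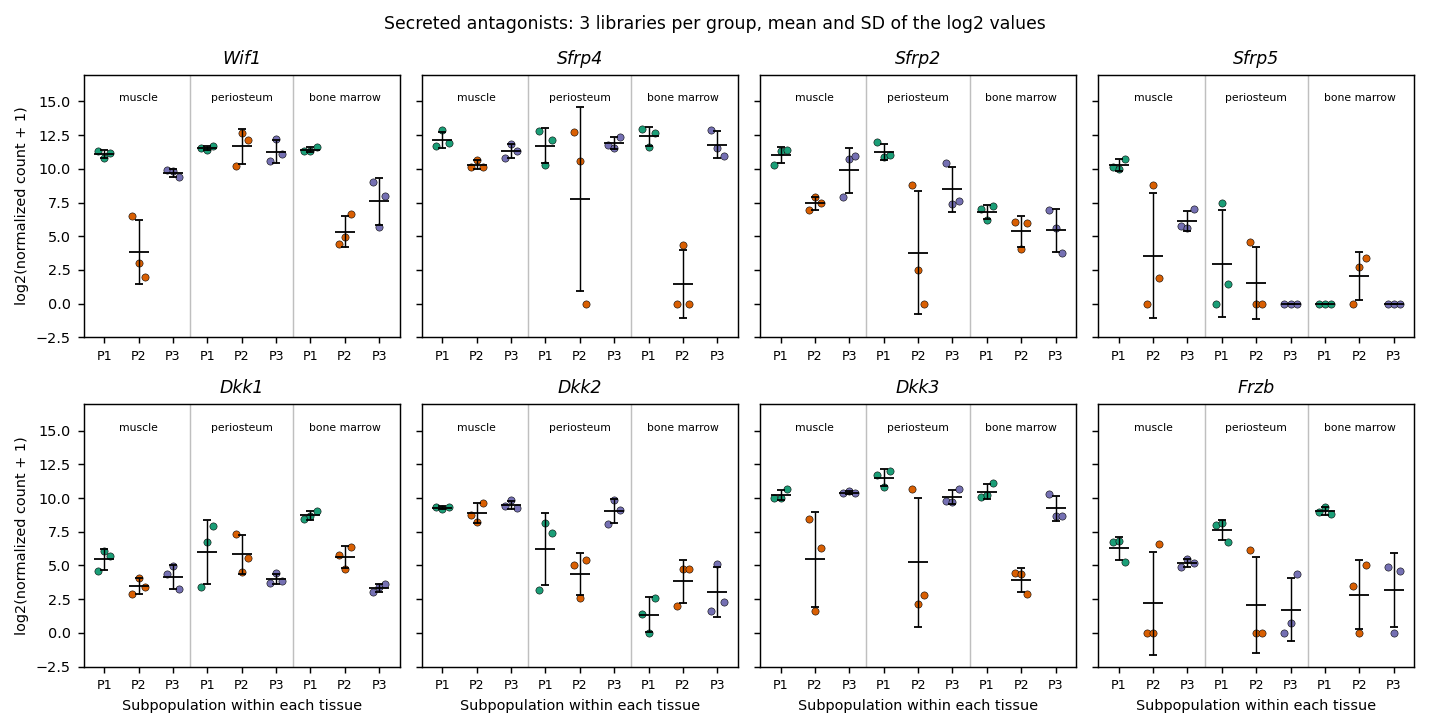
Points give log2(normalized count + 1) of 8 secreted antagonists in each library by subpopulation and tissue, and the black marks give the mean and SD of the 3 log2 values. Sfrp5 is highest in muscle P1, Dkk2 is low in bone marrow, and Dkk1 and Frzb are highest in bone marrow P1.

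Dkk1 binds Lrp5 and Lrp6 and is made by osteoblasts (chr19:30545863-30549665). In muscle it was at 22.8, 68 and 49.9 in P1, 6.5, 16 and 9.4 in P2, and 19.1, 30.4 and 8.33 in P3. Its periosteum values were 9.3, 104 and 243 in P1, 163, 22.4 and 46.1 in P2, and 12, 20.9 and 13.4 in P3. In bone marrow they were 346, 400 and 523 in P1, 54, 25.2 and 80.1 in P2, and 7.14, 9.57 and 11.3 in P3. All 3 bone marrow P1 libraries lay above every other library, periosteum P1 replicate 3 being next at 243. Levels in P1 were higher over all tissues (log2 fold change 2.32 ± 0.51, adjusted p = 0.00201) and in bone marrow (4.23 ± 0.88, adjusted p = 0.00127), and leaving out any 1 library ended neither call. Muscle P1 was lower than bone marrow P1 (-3.26 ± 1.02, adjusted p = 0.0454), a call lost without any 1 of 14 libraries from 6 groups (adjusted p from 0.0519 to 0.191) and with the replicate numbers as a block (adjusted p = 0.0537).

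Dkk2, its relative that also binds the co-receptors (chr3:132085292-132180304), was low in bone marrow. Muscle values were 639, 588 and 656 in P1, 435, 296 and 801 in P2, and 683, 910 and 618 in P3. Periosteum values were 7.94, 276 and 172 in P1, 31.8, 5.15 and 42.4 in P2, and 271, 942 and 551 in P3. Bone marrow values were 1.7, 0 and 5.14 in P1, 3.01, 25.3 and 25.8 in P2, and 2.15, 33.6 and 3.77 in P3. The lowest muscle library lay above the highest bone marrow library, and periosteum spread from 5.15 to 942. Muscle exceeded bone marrow (log2 fold change 6.50 ± 0.69, adjusted p = 9.49e-08) and periosteum (2.68 ± 0.69, adjusted p = 0.00608), and periosteum exceeded bone marrow (3.82 ± 0.69, adjusted p = 0.000251). In P1 cells both muscle (7.94 ± 1.19, adjusted p = 6.44e-05) and periosteum (4.89 ± 1.19, adjusted p = 0.0147) exceeded bone marrow. The last was lost without periosteum P1 replicate 2 (adjusted p = 0.0741), periosteum P1 replicate 3 (adjusted p = 0.0538) or bone marrow P1 replicate 2 (adjusted p = 0.0914).

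Dkk3, a divergent family member that does not bind the co-receptors (chr7:112116017-112159057), was at 1025, 1044 and 1594 in P1, 347, 2.01 and 78.1 in P2, and 1295, 1459 and 1298 in P3 in muscle. In periosteum it was at 3351, 1772 and 4107 in P1, 1663, 3.44 and 6.06 in P2, and 892, 851 and 1639 in P3. Among bone marrow libraries it was at 1083, 1209 and 2175 in P1, 21.1, 19.6 and 6.44 in P2, and 1269, 413 and 411 in P3. P2 was the low group in each tissue, and in muscle the P3 libraries lay within the P1 range. The level in P1 was higher over all tissues (log2 fold change 3.35 ± 0.76, adjusted p = 0.00249) and in bone marrow (3.90 ± 1.31, adjusted p = 0.0366), the latter lost without any 1 of 6 libraries of bone marrow P1, bone marrow P2 and bone marrow P3 (adjusted p from 0.0662 to 0.132).

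Notum, the enzyme that removes the lipid of Wnts (chr11:120653788-120661175), had 32.4, 55.8 and 6.93 in P1, 58.6, 15.6 and 22.7 in P2, and 1.59, 0 and 2.25 in P3 in muscle. It had 6.84, 79.1 and 90.7 in P1, 589, 228 and 397 in P2, and 3.53, 0 and 3.83 in P3 in periosteum. It had 151, 266 and 206 in P1, 20.8, 3.24 and 82.6 in P2, and 14.1, 1.11 and 20.7 in P3 in bone marrow. Periosteum P2 had the highest mean, followed by bone marrow P1, and their ranges overlapped. Higher levels were found in P1 over all tissues (log2 fold change 1.96 ± 0.61, adjusted p = 0.0243), lost without any 1 of 4 libraries of muscle P1, periosteum P1 and bone marrow P1 (adjusted p from 0.0504 to 0.0649), and in bone marrow (3.94 ± 1.06, adjusted p = 0.00981), lost without bone marrow P1 replicate 2 (adjusted p = 0.0522). Chondrocyte markers were also highest in periosteum P2, as was the mean of Lgr6 (659 ± 614, n = 3), and their part in these levels was not tested.

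Among the R-spondins, Rspo3 is expressed in bone and vessels (chr10:29452416-29535867). Muscle had 71.1, 60 and 41.4 in P1, 30.9, 279 and 48.2 in P2, and 34.4, 45.9 and 47.4 in P3. Periosteum had 64.2, 16.3 and 22.9 in P1, 0 in all 3 P2 libraries, and 339, 109 and 428 in P3. Bone marrow had 475, 173 and 607 in P1, 18, 8.41 and 67.5 in P2, and 766, 209 and 127 in P3. Periosteum P2 was listed at 0 in all 3 libraries, while periosteum P3 and bone marrow P1 and P3 all exceeded 100. Periosteum was lower than bone marrow (log2 fold change -2.76 ± 0.57, adjusted p = 0.000939), and in P1 cells too (-3.62 ± 0.98, adjusted p = 0.0304), where the call was lost without any 1 of 4 libraries of periosteum P1 and bone marrow P1 (adjusted p from 0.0635 to 0.141). Muscle exceeded periosteum (1.54 ± 0.57, adjusted p = 0.0489), but this was lost without any 1 of 20 libraries from 9 groups (adjusted p from 0.0501 to 0.114), and without P2 the difference turned to -0.81 (adjusted p = 0.504).

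Rspo2 was found in bone marrow P1 (81.8 ± 51.5, n = 3) and P3 (29.6 ± 26.1, n = 3), at up to 16.6 in muscle, and at 0 in all 9 periosteum libraries and in bone marrow P2. It was lower in muscle than in bone marrow (log2 fold change -2.28 ± 0.64, adjusted p = 0.00895), and in P1 cells (-5.52 ± 1.11, adjusted p = 0.00151). Periosteum was also lower (adjusted p = 0.000538, and in P1 cells adjusted p = 0.000991). These calls of muscle and periosteum against bone marrow are descriptions, because Rspo2 passed the filter on low values mainly through bone marrow libraries. Within bone marrow Rspo2 was higher in P1 (4.37 ± 0.96, adjusted p = 0.00201). Rspo1 and Rspo4 were called in no comparison of 2 groups, and 1 periosteum P1 library held 540 of Rspo4 while the other libraries of that group were at 0.

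Of the R-spondin receptors, Lgr4 was called (chr2:109917647-110014257). Muscle had 166, 200 and 139 in P1, 216, 269 and 229 in P2, and 72.9, 68.4 and 53.4 in P3. Periosteum had 5.9, 995 and 315 in P1, 15.2, 0 and 19.8 in P2, and 28.5, 256 and 31.6 in P3. Bone marrow had 583, 464 and 632 in P1, 64.8, 77.1 and 143 in P2, and 124, 32.3 and 53.6 in P3. Bone marrow P1 lay above the other bone marrow libraries, and periosteum P1 ran from 5.9 to 995. P1 was higher over all tissues (log2 fold change 1.99 ± 0.66, adjusted p = 0.0328), lost without any 1 of 8 libraries of muscle P1, periosteum P1 and bone marrow P1 (adjusted p from 0.051 to 0.0932). Lgr5 and Lgr6 were called in no comparison of 2 groups, although the F test over the 9 groups called both (adjusted p = 0.0334 and adjusted p = 0.0451).

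Both transcription factors of the list differed. Tcf7, which partners β-catenin (chr11:52252371-52283014), was at 6.39, 46.1 and 14.7 in P1, 22.3, 6.93 and 0 in P2, and 13.5, 34.1 and 6.98 in P3 in muscle. In periosteum it was at 0, 230 and 303 in P1, 0, 88.7 and 0 in P2, and 34.1, 44 and 5.49 in P3. In bone marrow it was at 578, 590 and 727 in P1, 26.7, 0 and 0 in P2, and 6.36, 14.9 and 8.37 in P3. The 3 bone marrow P1 libraries exceeded every other library. Levels in P1 were higher over all tissues (log2 fold change 3.25 ± 0.94, adjusted p = 0.0156) and in bone marrow (6.81 ± 1.63, adjusted p = 0.00418). No left-out library ended either call. Osteoblast and osteocyte markers were highest in bone marrow P1, the group with the highest Tcf7, Dkk1, Frzb and Lrp5, and their part in these levels was not tested.

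Lef1, its paralog (chr3:131110471-131224356), was at 59.2, 33.8 and 33.9 in P1, 107, 5.63 and 53 in P2, and 46.2, 63.4 and 48 in P3 in muscle. Periosteum had 209, 271 and 51.7 in P1, 405, 991 and 607 in P2, and 159, 954 and 275 in P3. Bone marrow had 134, 170 and 182 in P1, 189, 176 and 338 in P2, and 63, 127 and 166 in P3. Muscle P2 held the lowest library, at 5.63, and periosteum P2 the highest mean (667 ± 298). Muscle was lower than periosteum (log2 fold change -2.90 ± 0.52, adjusted p = 0.000268) and than bone marrow (-1.92 ± 0.52, adjusted p = 0.0069). Axin2, the feedback target of β-catenin, was called in no comparison of 2 groups and had its highest mean in muscle P2 (74.8 ± 46.3, n = 3).

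The other genes of the pathway were taken from a list of 50 (secretion, co-receptors, intracellular transducers and targets), of which 47 were tested. Of them 12 were called in P1 over all tissues, 10 higher (6.88% of all genes) and 2 lower (7.67%), with a median of 1.02 (-0.12 over all genes). Without P2, 2 were called, 1 in each direction (483 of all 18443 genes higher, 725 lower). The 5 with the largest change were Tnfrsf19, a target and receptor of the TNF family (3.86 ± 0.59, adjusted p = 3.96e-05), the co-receptor Ptk7 (3.79 ± 0.84, adjusted p = 0.00217), Bambi, a pseudoreceptor of TGF-β signalling (3.67 ± 0.64, adjusted p = 0.000178), the feedback inhibitor Nkd2 (3.06 ± 0.74, adjusted p = 0.00431) and, lower in P1, the polarity gene Vangl1 (-2.22 ± 0.42, adjusted p = 0.00048). Within muscle 0 were called (0.591% of all genes higher, 0.455% lower), within periosteum 9, 7 of them higher (4.32% and 4.84%), and within bone marrow 13, 10 of them higher (7.48% and 11.5%). Without P2 these became 0 (1 had an unadjusted p below 0.05 by limma), 1 and 4, beside 86, 771 and 1219 of all 18443 genes. In muscle, 4 of the 47 had an unadjusted p below 0.05 without being called.

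Between tissues the list of 47 gave 0 calls for muscle against periosteum, where 14 had an unadjusted p below 0.05 and 17.2% of all genes were called higher and 3.19% lower. It gave 8 for muscle against bone marrow, 3 higher and 5 lower (10.9% and 10.8% of all genes), and 7 for periosteum against bone marrow, 2 higher and 5 lower (4.01% and 16.8%). Without P2 these became 4, 8 and 4, beside 1817, 2546 and 1883 of all 18443 genes. In P1 cells, muscle exceeded periosteum for Sostdc1, an antagonist listed at 0 in periosteum P1 (adjusted p = 0.0159), the only call (4.34% of all genes were higher and 0.558% lower). Against bone marrow P1 the calls were the proteoglycan Gpc3 (log2 fold change 6.60 ± 1.36, adjusted p = 0.002), the inhibitor Nkd1 (4.77 ± 1.31, adjusted p = 0.0201), Sostdc1 (3.60 ± 1.12, adjusted p = 0.044), the target Myc (1.63 ± 0.42, adjusted p = 0.0117) and, lower in muscle, Ctnnb1, which encodes β-catenin (-1.96 ± 0.39, adjusted p = 0.00133), beside 5.4% of all genes higher and 2.94% lower. Periosteum P1 exceeded bone marrow P1 for Gpc3 (5.58 ± 1.36, adjusted p = 0.015). Periosteum P1 was lower for the antagonist Apcdd1, listed at 0 there (adjusted p = 0.00707), beside 1.91% of all genes higher and 2.96% lower. This Apcdd1 call is a description, because Apcdd1 passed the filter on low values only through bone marrow P1 (107 ± 91.9), the high side. Differences between tissues in the P1 change gave 0 calls for periosteum minus muscle (9 had an unadjusted p below 0.05), 2 for bone marrow minus muscle and 4 for periosteum minus bone marrow (2.44%, 7.42% and 2.8% of all genes). Without P2 they gave 0 (2 had an unadjusted p below 0.05 by limma), 2 and 1, beside 46, 368 and 99 of all 18443 genes. The F test called 25 of the 47 (53.2%, against 60.2% of all genes).

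Antisense or other opposite-strand genes share exon bases with 10 of the 51 genes, most in Notum (29.4% of its exon bases with Notumos), Fzd5 (17.8%), Sfrp2 (16.1%), Lef1 (13.7%) and Rspo3 (13.1%). The counting is not stated to use strand, so reads of these stretches cannot be told apart.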

How the data were processed

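RNA of sorted cells was amplified (SMART-Seq v4), made into libraries (Nextera XT) and sequenced on a HiSeq by a service provider. Per the methods of the study, the authors trimmed reads with Trim Galore, aligned them with STAR and normalized with DESeq2. The tool that counted reads, the genome build and the annotation are not given in the sources used here. The deposited values are a signal, normalized counts per gene that are not whole numbers. The steps between low values differed from gene to gene, so whole reads could not be recovered, no count model was used, and sequencing depth is unknown. The most frequent value above 0 was 2.827 to 3.249 in bone marrow P2 libraries and 0.455 to 1.774 in the others. The same normalized count may therefore stand for fewer reads in bone marrow P2. Library totals were 8639660 to 26232142.

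The 51 genes and all lists were chosen with earlier results of these data known. Entries with at least 10 in at least 3 of 27 libraries were kept (18443 of 30154), and log2(value + 1) was fitted with limma 3.58.1 in R 4.3.3 (9 group means, moderated variance with trend, Benjamini-Hochberg over all entries kept). Fold changes are on this scale, which understates the change of low genes. Calls required an adjusted p under 0.05 together with a log2 fold change beyond 1.5 in either direction, and for the F test over 9 groups an adjusted p under 0.05 alone. Errors of fold changes are SE, errors of means are SD. Scripts were tested on simulated data. The design text says that the tissues came from the same animals without tying libraries to animals, so libraries were treated as independent.

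Values per library are given for genes called in at least 1 of the 10 comparisons of 2 groups or sets of groups and with a group mean of at least 100, and other genes by means or ranges. Of 50 other pathway genes, the 5 largest called changes were named in P1 over all tissues and in each comparison of P1 cells. The 15 marker lists were summed per library. Gene positions are from GENCODE M21 (GRCm38), where 29732 identifiers matched, and promoter windows from RefSeq (GRCm38.p6). Tables were handled with Python 3.11.15, pandas 2.3.3, numpy 2.4.6 and scipy 1.17.1, and figures drawn with matplotlib 3.10.9. Alternatives were other pseudocounts, filters and scalings, the replicate number as a block, and no variance trend. Others fitted only the groups compared or left out each library in turn. Comparisons without P2 were chosen after seeing the data. They gave P2 no weight but kept its libraries in the fit and in the estimate of the spread.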

Additional observations from a re-analysis of the deposited data

Results flagged for a closer look

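In 6 results the change of P1 against P2 and P3 passed the threshold for a difference between tissues, tested directly (limma, adjusted over all genes tested). For Wif1 the log2 change in periosteum minus that in muscle was -4.25 ± 1.11 (SE, adjusted p = 0.039), and periosteum minus bone marrow was -4.89 ± 1.11 (adjusted p = 0.016). For bone marrow minus muscle, Wnt1 differed by -4.81 ± 1.21 (adjusted p = 0.0153), Wnt7a by -3.61 ± 0.95 (adjusted p = 0.0196) and Rspo2 by 4.86 ± 1.36 (adjusted p = 0.0282). For periosteum minus bone marrow, Wnt7a differed by 3.88 ± 0.95 (adjusted p = 0.0268). The values of Wnt1, Wnt7a and Rspo2 include groups listed at 0 in all libraries, so their size depends on the pseudocount. Wnt7a passed the filter on low values only through the 3 bone marrow P2 libraries, so it had to differ there, and its 2 values are descriptions. All 6 were lost without P2. With 3 libraries in each group, single libraries were not screened.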

How the results depend on the processing

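Of 98 called fold changes and differences, 63 were lost by leaving out no single library and 35 by leaving out at least 1. Among alternatives that could be computed, the calls kept were 96 of 98 without the variance trend, 95 of 98 with the replicate block, 80 with a pseudocount of 0.1, 89 with a pseudocount of 5, 85 with quantile normalization, 89 with rescaled totals, 88 without the filter, 71 of 71 with a mean of at least 50, 65 of 82 with the compared groups alone and 34 of 80 without P2. Rspo3 in muscle against periosteum reversed to -0.81 without P2; no other called value reversed. Libraries with the same replicate number had nearly uncorrelated deviations from their group means (mean correlation 0.000243, from -0.0592 to 0.0502 over 36 pairs of groups). This cannot show which libraries came from the same mouse. The replicate block ended the calls of Rspo3 in muscle against periosteum, Dkk1 in muscle against bone marrow P1 cells and Wif1 for periosteum minus muscle. Without P2 the numbers of genes called became 6 in muscle against periosteum, 10 in P1 over all tissues, 0 in P1 within muscle, 2 within periosteum (1 higher, 1 lower), 6 within bone marrow and 0 for each of the 3 differences between tissues. The counts over all genes without P2 are given with each comparison above. P1 within muscle (2 calls) gave 1 with a pseudocount of 0.1, 4 with 5, 1 without the filter, 1 with a mean of at least 50, 1 without the trend and 4 with the groups alone. P1 within periosteum (5) gave 3 with a pseudocount of 0.1 and 0 with the groups alone, where P1 within bone marrow (13) gave 21. In P1 cells, muscle against periosteum (4) gave 2 with a pseudocount of 0.1 and 2 with a mean of at least 50, muscle against bone marrow (9) gave 16 with quantile normalization and 18 with the groups alone, and periosteum against bone marrow (5) gave 3 without the filter and 3 with the groups alone. Periosteum minus muscle (1) gave 2 with a pseudocount of 5 and 0 with a pseudocount of 0.1, without the filter, with the replicate block, without the trend and with the groups alone. Bone marrow minus muscle (3) gave 1 with a pseudocount of 0.1, 5 with 5, 0 with a mean of at least 50 and 11 with the groups alone. Periosteum minus bone marrow (2) gave 1 with a pseudocount of 0.1, with a mean of at least 50, with quantile normalization and with the groups alone. Leaving out 1 library gave 9 to 16 calls in muscle against periosteum, 15 to 19 in muscle against bone marrow, 10 to 17 in periosteum against bone marrow, 13 to 20 in P1 over all tissues, 1 to 3 within muscle, 3 to 9 within periosteum and 8 to 16 within bone marrow. In P1 cells the ranges were 0 to 5, 7 to 12 and 2 to 8 in the same order of tissues, the 3 differences gave 0 to 2 (periosteum minus muscle), 1 to 5 (bone marrow minus muscle) and 1 to 3 (periosteum minus bone marrow), and the F test 35 to 40. The cause of these changes was not tested. Sequencing depth is unknown, so no limit on a gene listed at 0 can be given.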
